A study of Mus musculus with 13 samples.

Results

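The breakdown of the branched-chain amino acids (BCAAs) leucine, isoleucine and valine in mitochondria was followed in parametrial white adipose tissue (pmWAT) through 10 genes: *Bcat2*, *Bckdha*, *Bckdhb*, *Dbt*, *Ivd*, *Mccc1*, *Mccc2*, *Acadsb*, *Hibch* and *Hibadh*. They were chosen by symbol, as the rows of the deposited count table whose Ensembl mouse gene identifier carries one of these symbols, and make up 10 of its 33618 genes. BCAA breakdown begins with a reversible transamination, for which BCAT2 is the mitochondrial enzyme. The branched-chain ketoacid dehydrogenase complex then carries out the irreversible committed step, under the control of an inhibitory kinase and an activating phosphatase. Each amino acid afterwards follows a route of its own to acetyl-CoA, acetoacetate or propionyl-CoA, and differentiated adipocytes are known to use BCAA carbon for lipid synthesis.

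Bulk RNA-Seq was performed on whole pmWAT of female mice, with 1 library per mouse. The 7 control mice were *Lmna fl/fl* without Cre, and the 6 *Lmna* iADKO mice carried the same floxed *Lmna* alleles with a tamoxifen-inducible Cre driven by the *Adipoq* promoter, which is active in adipocytes and not in the other cells of the depot. Both genotypes received tamoxifen at 50 mg/kg for 5 days at 12 to 14 weeks of age and were studied 2 weeks posttamoxifen. Between 19147428 and 19776491 reads per library were counted on genes in fl/fl and between 18854223 and 19569221 in iADKO. Levels are given in CPM, which are counts scaled to a common library size with TMM normalization, with the SD between mice.

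*Lmna* itself had a range of 74.7 to 98.5 CPM (median 83.5) over the 7 libraries labelled fl/fl, and of 80.1 to 109 CPM (median 96.8) over the 6 labelled iADKO. The ranges overlapped, and iADKO replicates 2, 3 and 4 lay above every fl/fl library. The means were 84.7 ± 7.51 and 96.8 ± 11.5 CPM, a log2 fold change of 0.19 (SE 0.079, adjusted p = 0.0785 by the quasi-likelihood test of edgeR). The counts are for the whole gene, so the floxed exons could not be counted apart from the others, and the libraries of whole tissue include *Lmna* RNA of cells in which the Cre is not active. The targeted gene thus showed no fall under the iADKO label, and the directions below are those the labels give.

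The tissue label was checked against 10 adipocyte markers, which were all detected in each library and summed to 24700 to 39550 CPM in fl/fl and 15670 to 25000 CPM in iADKO. *Lpl*, lipoprotein lipase, was the most abundant of them in fl/fl (mean 8728 CPM), and *Cfd* was in iADKO (4960 CPM, beside 4766 CPM for *Lpl*). In each genotype 1 library lay nearest the other genotype. Fl/fl replicate 5 had the lowest adipocyte marker sum of its genotype (24700 CPM) and the highest sum of 10 macrophage markers (5461 CPM), and iADKO replicate 6 had the highest adipocyte sum (25000 CPM) and the lowest macrophage sum (3209 CPM) of its own. The share of the 10 most counted genes of a library ran from 9.54 to 14.3% for fl/fl and, without overlap, from 6.51 to 9.12% for iADKO. That of mitochondrially encoded genes ran from 2.84 to 5.07% (median 4%) for fl/fl and from 2.39 to 3.99% (median 2.78%) for iADKO. Fl/fl replicate 5 was the lowest of its genotype and iADKO replicate 6 the highest of its own in both shares, whose part in the results below was not tested.

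All 10 BCAA genes passed the filter on low counts and were lower in the iADKO-labelled libraries (adjusted p under 0.05, edgeR). Among all 16753 genes tested, 2737 were lower by the same rule, or 16.3%. The log2 fold changes of the 10 genes ran from -1.03 for *Acadsb* to -0.55 for *Dbt* with a median of -0.76, beside a median of 0.03 over all genes tested. Counted from the lowest log2 fold change, *Acadsb* was at place 265 and *Dbt* at place 1191 of the 16753. In 6 of the 10 (*Bcat2*, *Bckdhb*, *Dbt*, *Ivd*, *Acadsb* and *Hibadh*) each iADKO library was below each fl/fl library, as in 3.93% of all genes tested. In the other 4, *Bckdha*, *Mccc1*, *Mccc2* and *Hibch*, the overlap came from iADKO replicate 6 lying above fl/fl replicate 5. Fewer adipocytes in the tissue and less RNA of these genes per adipocyte cannot be told apart in bulk libraries.

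**Figure D1:**
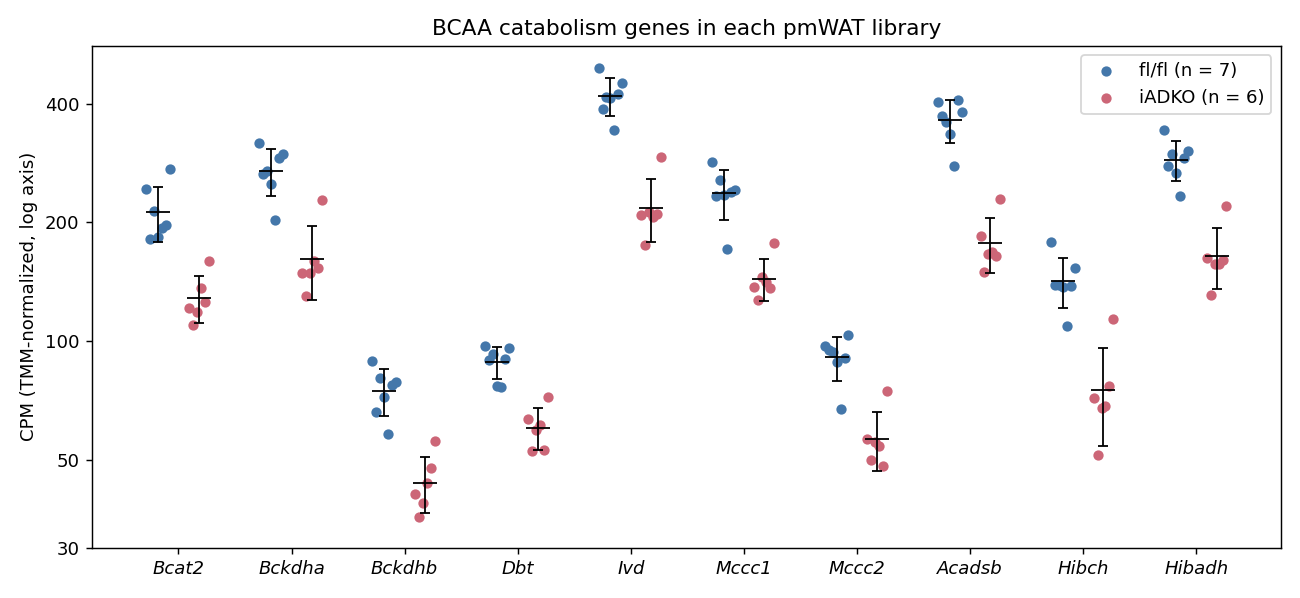
Level of the 10 BCAA catabolism genes in each library, in CPM on a log axis, with fl/fl libraries (n = 7) in blue and iADKO libraries (n = 6) in red. Points are mice and bars are the mean ± SD. The iADKO points lie below the fl/fl points for 6 genes, and for the other 4 the highest iADKO point, replicate 6, reaches above the lowest fl/fl point, replicate 5.

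Animal numbers in the library names fall into 5 series where gaps of over 10 part them, and the labels give the same batch for all mice. Only 2 of these series hold both genotypes. Between animals 747 and 750 (3 fl/fl and 1 iADKO), the 10 genes differed by -1.55 to -0.82 in mean log2 CPM (median -1.12), with the iADKO value below the fl/fl values for all 10, as in 36.3% of all genes tested. Between animals 722 and 727 (2 of each genotype, among them fl/fl replicate 5 and iADKO replicate 6), they differed by -0.64 to -0.21 (median -0.37), without overlap for 6, as in 16.4% of all genes tested, and edgeR called 0 genes in these 4 mice. With the 5 series as a block in edgeR, the 10 log2 fold changes were between -0.92 and -0.46, all 10 were lower at an unadjusted p under 0.05, as were 12.8% of all genes tested, and 0 passed the adjusted threshold (adjusted p = 0.0571 to 0.122), which 0.0836% of all genes tested passed as lower. With animal 765, an iADKO mouse, joined to the series from 747 to 750 across a gap of 15, all 10 were called lower (largest adjusted p = 0.0328), as were 7.17% of all genes tested. The gap between 707 and 722 is also 15. With both gaps closed, which leaves 3 series and was chosen after seeing the data, all 10 were called lower (largest adjusted p = 0.0103), as were 11.6% of all genes tested. Without fl/fl replicate 5 and iADKO replicate 6, a choice made after seeing the data, all 10 were called lower and their median was -0.94. In that smaller comparison 23.3% of all genes tested were called lower.

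*Bcat2* (ENSMUSG00000030826, chr7:45219577-45239152 on the plus strand of GRCm39), the mitochondrial branched-chain aminotransferase, had a lowest, median and highest level of 181, 196.6 and 272 CPM in fl/fl. In iADKO the corresponding levels were 110.0, 124 and 160 CPM. The highest iADKO library, replicate 6, was below the lowest fl/fl library. The means were 212 ± 34.1 and 128 ± 17.6 CPM, a fall of 39.4% (log2 fold change -0.72, SE 0.11, adjusted p = 5.7e-04). The cytosolic aminotransferase *Bcat1* was near 2 CPM in both genotypes (1.66 ± 0.423 and 2.11 ± 0.509 CPM), and its log2 fold change of 0.35 (SE 0.19) did not pass the threshold (adjusted p = 0.189).

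The ketoacid dehydrogenase complex consists of a decarboxylase made of alpha and beta subunits, a transacylase core and a dehydrogenase that other complexes also use. *Bckdha* (ENSMUSG00000060376, chr7:25326168-25358420, minus strand), the alpha subunit, was at 203 to 317 CPM in fl/fl (median 269.6) and at 130 to 228 CPM in iADKO (median 151). The groups overlapped only through iADKO replicate 6, at 228 CPM, and fl/fl replicate 5, at 203 CPM. Its mean fell from 270.4 ± 37.3 to 161 ± 34.0 CPM (log2 fold change -0.74, SE 0.13, adjusted p = 0.00105). *Bckdhb* (ENSMUSG00000032263, chr9:83807130-84011081, plus strand), the beta subunit, was at 58.3 to 89.3 CPM in fl/fl (median 77.4) and at 35.8 to 55.7 CPM in iADKO (median 42.4). The groups did not overlap, and the log2 fold change was -0.77 (SE 0.11, adjusted p = 4.5e-04). *Dbt* (ENSMUSG00000000340, chr3:116306686-116343633, plus strand), the transacylase core, was at 76.7 to 97.1 CPM in fl/fl (median 90.2) and at 52.6 to 72.1 CPM in iADKO (median 60.5). It too was without overlap, and at -0.55 (SE 0.082, adjusted p = 5.4e-04) its log2 fold change was the smallest of the 10 genes. *Dld*, the dehydrogenase shared with the pyruvate and oxoglutarate complexes, was lower by the same amount, -0.55 (SE 0.12, adjusted p = 0.0038), from 252 ± 39.2 to 172 ± 25.4 CPM.

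The log2 fold changes of the regulators of the complex were smaller in size than those of its subunits, a difference that was not tested. *Bckdk*, the kinase that inhibits the complex, was at 69.0 to 90.1 CPM in fl/fl (median 82.2) and at 57.2 to 79.0 CPM in iADKO (median 60.5). The groups overlapped through iADKO replicate 6, and the log2 fold change was -0.37 (SE 0.078, adjusted p = 0.00345). *Ppm1k*, the phosphatase that activates it, was at 15.2 to 21.2 CPM in fl/fl (median 18.0) and at 13.9 to 20.6 CPM in iADKO (median 16.0), with a log2 fold change of -0.19 (SE 0.098) that did not pass the threshold (adjusted p = 0.149).

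Whether subunits of the same enzyme, or opposing regulators, moved apart was asked for 5 pairs of genes by the difference of their log2 CPM in each mouse, with an exact two-sided permutation test over mice whose smallest p is 0.000583. The ratio of *Bckdhb* to *Bckdha* was -1.85 ± 0.09 in fl/fl (n = 7) and -1.87 ± 0.11 in iADKO (n = 6) on the log2 scale. The difference was -0.02 with a 95% interval of -0.13 to 0.10 (exact permutation p = 0.76, adjusted p = 0.76), which bounds how far the subunits of the decarboxylase moved apart. The ratio of *Dbt* to *Bckdha* was -1.60 ± 0.11 in fl/fl and -1.40 ± 0.16 in iADKO, a difference of 0.20 (95% interval 0.04 to 0.36) that did not hold over the 5 pairs (exact permutation p = 0.0245, adjusted p = 0.122). Without fl/fl replicate 5 the adjusted p was 0.0325 and without iADKO replicate 6 it was 0.0316. The *Ppm1k* to *Bckdk* ratio was -2.12 ± 0.22 in fl/fl and -1.94 ± 0.12 in iADKO, a difference of 0.18 (95% interval -0.04 to 0.40, exact permutation adjusted p = 0.238). It passed the threshold without fl/fl replicate 5 (difference 0.25, exact permutation adjusted p = 0.0325).

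Leucine is next oxidized by isovaleryl-CoA dehydrogenase, the product of *Ivd* (ENSMUSG00000027332, chr2:118692141-118714335, plus strand). It was at 344 to 491 CPM in fl/fl (median 416) and at 175 to 294 CPM in iADKO (median 209). The groups did not overlap, although iADKO replicate 6, at 294 CPM, stood well above the next iADKO library, at 212 CPM, and the mean fell by 47.9% from 418 ± 46.3 to 218 ± 39.7 CPM (log2 fold change -0.94, SE 0.11, adjusted p = 1.7e-04). *Mccc1* (ENSMUSG00000027709, chr3:36010879-36054881, minus strand) and *Mccc2* (ENSMUSG00000021646, chr13:100069907-100152178, minus strand) encode the alpha and beta subunits of the biotin-dependent methylcrotonyl-CoA carboxylase. *Mccc1* was at 171 to 284 CPM in fl/fl (median 239) and at 127 to 177 CPM in iADKO (median 139). *Mccc2* was at 67.2 to 104 CPM in fl/fl (median 94.2) and at 48.3 to 74.9 CPM in iADKO (median 54.9). Both overlapped only between iADKO replicate 6 and fl/fl replicate 5. Their log2 fold changes were -0.72 (SE 0.10, adjusted p = 4.3e-04) and -0.69 (SE 0.11, adjusted p = 7.4e-04), and the difference in their ratio was 0.02 (95% interval -0.10 to 0.14, exact permutation adjusted p = 0.76).

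Of the later leucine steps, *Auh*, the methylglutaconyl-CoA hydratase, was lower without overlap (70.1 ± 8.79 and 46.5 ± 4.42 CPM, log2 fold change -0.59, SE 0.089, adjusted p = 5.6e-04). *Oxct1*, which activates the ketone body acetoacetate for use, was also lower without overlap (275 ± 33.4 and 189 ± 14.3 CPM, log2 fold change -0.54).

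For isoleucine, *Acadsb* (ENSMUSG00000030861, chr7:131012267-131050673, plus strand) encodes the short/branched-chain acyl-CoA dehydrogenase. It was at 278 to 407 CPM in fl/fl (median 372) and at 150 to 229 CPM in iADKO (median 167). The lowest fl/fl library, replicate 5, was above the highest iADKO library, replicate 6. With means of 362 ± 44.8 and 177 ± 27.8 CPM it fell by 51.2% (log2 fold change -1.03, SE 0.11, adjusted p = 1.2e-04), the largest change of the 10 genes. The ratio of *Ivd* to *Acadsb*, the dehydrogenases that act at the same step on leucine and isoleucine, differed by 0.09 on the log2 scale (95% interval -0.03 to 0.20, exact permutation adjusted p = 0.238). Further along this route *Acat1*, the mitochondrial acetoacetyl-CoA thiolase, was lower by a log2 fold change of -0.66 (adjusted p = 9.9e-04) and *Hsd17b10*, a mitochondrial dehydrogenase, by -0.37 (adjusted p = 0.0112).

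For valine, *Hibch* (ENSMUSG00000041426, chr1:52884079-52963346, plus strand) encodes the hydrolase that releases 3-hydroxyisobutyrate from its CoA ester. It was at 109 to 178 CPM in fl/fl (median 139) and at 51.4 to 114 CPM in iADKO (median 70.1). Replicate 6 of iADKO, at 114 CPM, was above replicate 5 of fl/fl, at 109 CPM, and the log2 fold change was -0.92 (SE 0.15, adjusted p = 0.0011). *Hibadh* (ENSMUSG00000029776, chr6:52430355-52617400, minus strand), which oxidizes 3-hydroxyisobutyrate, was at 234 to 342 CPM in fl/fl (median 291) and at 131 to 219 CPM in iADKO (median 159). It did not overlap, and its log2 fold change was -0.81 (SE 0.11, adjusted p = 3.2e-04). *Aldh6a1*, the methylmalonate semialdehyde dehydrogenase of the next step, was the most abundant of the other pathway genes by CPM. It fell without overlap from 701 ± 65.3 to 359 ± 88.4 CPM (log2 fold change -0.96, SE 0.13, adjusted p = 3.1e-04). The enoyl-CoA hydratase *Echs1* was lower by -0.75 (adjusted p = 6.8e-04), while *Acad8*, the isobutyryl-CoA dehydrogenase that opens the valine route, was lower by only -0.26 (SE 0.065, adjusted p = 0.00829), from 53.4 ± 4.22 to 44.5 ± 3.60 CPM.

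Over the wider pathway, which adds 28 carriers, regulators, cofactor enzymes and later steps to the 10 genes, 21 of 28 were lower and 0 were higher at an adjusted p under 0.05 in edgeR, where 16.3% of all genes tested were called lower and 14.1% higher. The median log2 fold change of the 28 was -0.50. It was -0.29 with scaling by total counts and -0.15 in the mice of animals 722 to 727 alone. With the animal-number series as a block, 20 of the 28 were called lower with 3 series, 14 with 4 series and 1, *Btd*, with 5 series, where 20 were lower at an unadjusted p under 0.05 beside the 12.8% of all genes tested. The calls lost with 4 series were those of *Slc43a1*, *Dld*, *Bckdk*, *Acad8*, *Hsd17b10*, *Mcee* and *Etfdh*. Without a block, 2 of the 28 were higher at an unadjusted p under 0.05 in edgeR. By that rule 7145 of all 16753 genes tested differed, 3560 of them lower and the rest higher, so the 2 are no excess over all genes. The 2 were the plasma membrane transporter *Slc7a5* (log2 fold change 0.29, SE 0.11, adjusted p = 0.0506) and its partner *Slc3a2* (0.20, SE 0.084, adjusted p = 0.088). DESeq2 called 1 higher, *Slc7a5*, where it called 2513 of all 16753 genes tested higher. Without fl/fl replicate 5 and iADKO replicate 6, both *Slc7a5* and *Slc3a2* were called higher, as were 3282 of all 16769 genes tested. The mitochondrial BCAA carrier *Slc25a44* was at 88.4 to 181 CPM in fl/fl (median 151) and at 85.2 to 101 CPM in iADKO (median 92.2). The groups overlapped, and the log2 fold change was -0.60 (SE 0.15, adjusted p = 0.00962). *Slc25a44* lies on chromosome 3, 54.9 kb from the floxed *Lmna* gene. A further plasma membrane transporter, *Slc43a1*, was lower by -0.47 (SE 0.16, adjusted p = 0.0371), a call that 16 of 24 alternative fits did not give, 10 of the 13 that left out a mouse among them.

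**Figure D2:**
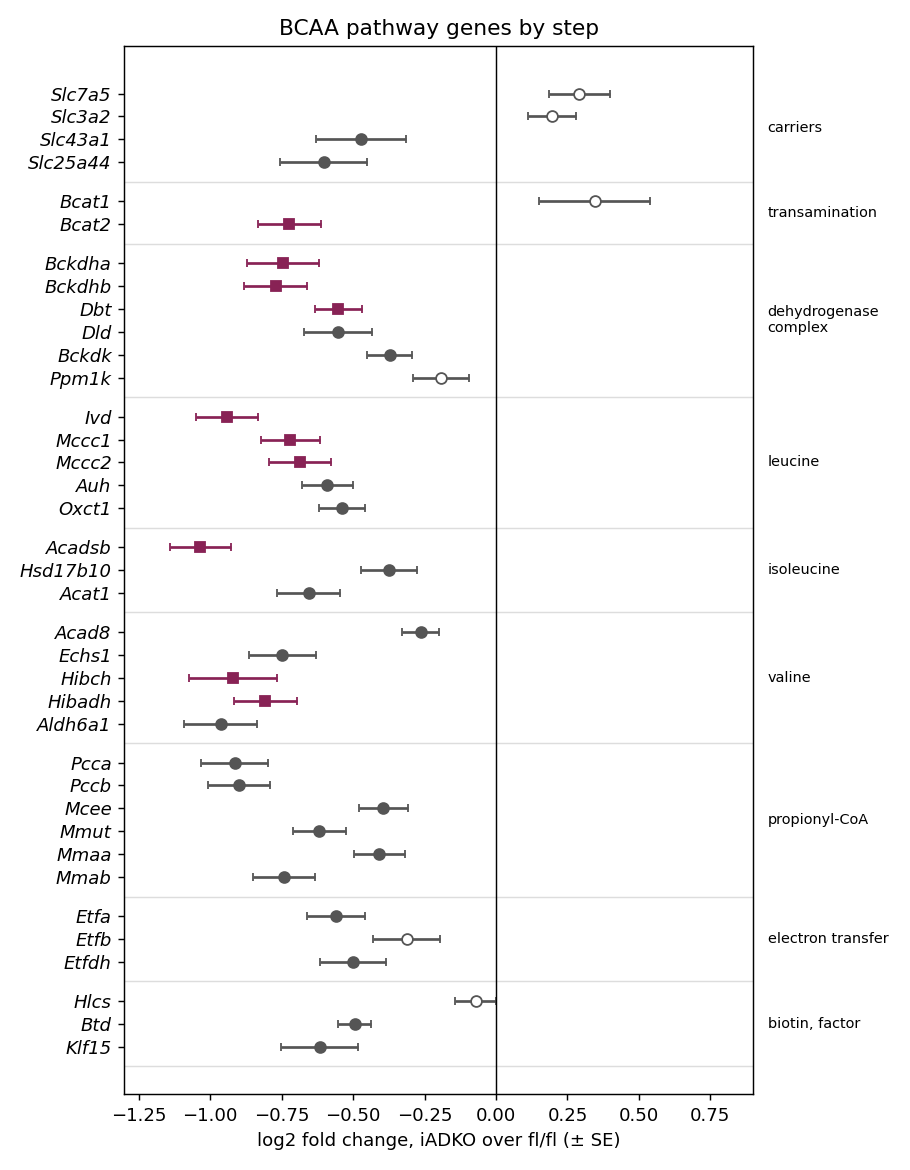
Log2 fold change (iADKO over fl/fl, ± SE) of the 10 BCAA catabolism genes (squares) and genes of the wider pathway (circles), grouped by step. Filled symbols passed an adjusted p of 0.05 in edgeR and open symbols did not. All 10 squares are filled and lie between -1.03 and -0.55, and the open circles are *Slc7a5*, *Slc3a2*, *Bcat1*, *Ppm1k*, *Etfb* and *Hlcs*.

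Valine and isoleucine carbon meets in propionyl-CoA, and each of the 6 listed genes that carry it to succinyl-CoA was lower. The propionyl-CoA carboxylase subunits *Pcca* (148 ± 25.9 and 78.7 ± 8.07 CPM) and *Pccb* (211 ± 28.8 and 113 ± 16.7 CPM) did not overlap between genotypes and had log2 fold changes of -0.91 (SE 0.12, adjusted p = 2.7e-04) and -0.90 (SE 0.11, adjusted p = 2.0e-04). *Mmab*, which handles the cobalamin cofactor, did not overlap either (log2 fold change -0.74). The mutase *Mmut* was lower by -0.62, the cobalamin gene *Mmaa* by -0.41 and the epimerase *Mcee* by -0.39. Of the flavoproteins that take electrons from the acyl-CoA dehydrogenases, *Etfa* was lower by -0.56 (adjusted p = 0.00155) and *Etfdh* by -0.50 (adjusted p = 0.00567). *Etfb*, counted at only 4.42 ± 0.547 and 3.55 ± 0.458 CPM, did not pass the threshold (log2 fold change -0.31, adjusted p = 0.058). *Btd*, a gene of biotin recycling, was lower without overlap (65.9 ± 5.88 and 46.8 ± 1.25 CPM, log2 fold change -0.49). *Hlcs*, which attaches biotin to the carboxylases, had a log2 fold change of -0.07 (SE 0.071, adjusted p = 0.465). *Klf15*, a transcription factor known to act on BCAA catabolic genes, was at 82.9 to 150 CPM in fl/fl (median 99.7) and at 61.0 to 81.0 CPM in iADKO (median 73.9), and fell without overlap (log2 fold change -0.62, SE 0.14, adjusted p = 0.00455). In all, 8 of the 28 had each iADKO library below each fl/fl library, as had 3.93% of all genes tested.

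With scaling by total counts in place of TMM, the median log2 fold change of all genes tested moved from 0.03 to 0.24, and 1276 genes were called lower and 7397 higher. The 10 BCAA genes were then all called lower, with a median of -0.55. That median was -0.79 from the median of all genes with either scaling. Scaling moves all genes by about the same amount, so this distance could not have changed much and is no check on the result. By that scaling 17 of the 28 wider pathway genes were called lower, as were 7.62% of all genes tested, with *Slc43a1*, *Acad8*, *Hsd17b10* and *Mcee* no longer among them, and *Bcat1*, *Slc7a5* and *Slc3a2* were called higher.

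Levels of the 10 genes relative to each other were compared per kb of the Ensembl canonical transcript, since the isoforms in use are not known from gene counts. In fl/fl, *Hibadh* was highest (157 ± 18.3 CPM per kb), followed by *Bckdha* (141 ± 19.5), *Bcat2* (119 ± 19.1), *Mccc1* (95.9 ± 13.8), *Ivd* (85.2 ± 9.43), *Acadsb* (59.0 ± 7.29), *Mccc2* (42.1 ± 5.36), *Hibch* (27.5 ± 4.00), *Dbt* (26.5 ± 2.52) and *Bckdhb* (15.0 ± 2.05). *Hibch* was above *Dbt* in only 4 of 7 fl/fl libraries, and these neighbours did not differ beyond their spread. The ranges over libraries were apart for neighbours only between *Ivd* and *Acadsb* and between *Dbt* and *Bckdhb*. In iADKO the order was the same except that *Dbt* (18.1 ± 2.17 CPM per kb) was above *Hibch* (14.6 ± 4.05). The alpha subunit of the decarboxylase was counted 9.42 ± 0.594 times as high per kb as the beta subunit in fl/fl and 9.55 ± 0.746 times as high in iADKO.

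Most listed genes of 2 other mitochondrial functions, and the adipocyte markers, were lower too. All 5 listed genes of the pyruvate dehydrogenase complex, *Dld* among them, were lower with a median log2 fold change of -0.82, beside the 16.3% of all genes tested that were called lower, and 0 of the 5 were without overlap, beside 3.93% of all genes tested. Of 15 genes of mitochondrial fatty acid beta-oxidation, which share *Echs1* with the wider pathway, 13 were lower, *Cpt1a* was higher (0.36, adjusted p = 0.0293) and the median was -0.63. All 10 adipocyte markers were lower, with log2 fold changes from -1.15 to -0.61 and a median of -0.84, a range that holds 9 of the 10 BCAA genes.

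The summed level of the 10 BCAA genes was 2184 ± 257 CPM in fl/fl (1735 to 2543) and 1229 ± 205 CPM in iADKO (1013 to 1623). In both genotypes the library nearest the other genotype in this sum was also nearest in the adipocyte marker sum, namely fl/fl replicate 5 and iADKO replicate 6. The mean log2 CPM of the 10 BCAA genes minus that of the adipocyte markers was -3.46 ± 0.12 in fl/fl (-3.57 to -3.25) and -3.37 ± 0.16 in iADKO (-3.52 to -3.12). Relative to these markers the genotypes overlapped, and their means lay within 1 SD of each other.

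**Figure D3:**
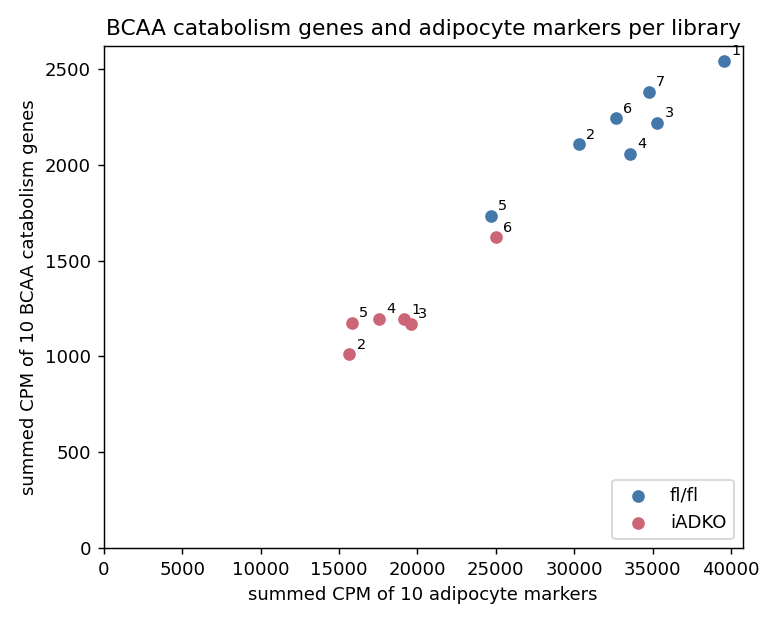
Summed CPM of the 10 BCAA catabolism genes (vertical axis) against the summed CPM of 10 adipocyte markers (horizontal axis), 1 point per library with its replicate number, fl/fl in blue and iADKO in red. Fl/fl replicate 5 (24700 and 1735 CPM) and iADKO replicate 6 (25000 and 1623 CPM) lie next to each other between the remaining libraries of both genotypes.

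Markers of other cells did not all move in the same direction. Among all genes tested, 14.1% were called higher and 16.3% lower, beside which the counts of markers below are to be read. Of 10 macrophage markers 7 were higher in iADKO (median log2 fold change 0.69). *Lyz2*, *Cd14* and *Mertk* did not pass the threshold (adjusted p = 0.103, 0.362 and 0.254 in edgeR). The sum of the 10, with *Lyz2* the most abundant, was 1928 to 5461 CPM in fl/fl and 3209 to 5549 CPM in iADKO. Of 4 B cell markers, with *Cd79a* the most abundant, 2 were higher (median 0.74) and they summed to 19.6 to 53.1 and 33.9 to 72.6 CPM. Brown adipocytes and skeletal muscle are other tissues rich in BCAA enzymes. Of 5 brown adipocyte markers *Ucp1*, *Cox7a1* and *Cox8b* were lower (3 of 5, median -1.11). The 5, of which *Cidea* was the most abundant in fl/fl, summed to 34.9 to 126 CPM in fl/fl and 18.8 to 52.2 CPM in iADKO. Of 6 skeletal muscle markers, with *Acta1* the most abundant, 0 passed the threshold in edgeR (median -0.76), and they summed to 19.2 to 385 CPM in fl/fl and 13.2 to 211 CPM in iADKO. Mesothelial (5 genes, *Upk3b* most abundant, median 0.23) and progenitor markers (5 genes, *Dcn* most abundant, median 0.11) had 0 genes past the threshold, and of 5 endothelial markers, with *Pecam1* the most abundant, 2 were lower (median -0.02). None of these markers was at 0 in all libraries. Mesothelial markers summed to 313 to 652 CPM in fl/fl and 301 to 744 CPM in iADKO, progenitor markers to 2750 to 4593 and 2771 to 4577 CPM, and endothelial markers to 783 to 1097 and 824 to 952 CPM. The part of these cell types in the lower BCAA genes was not tested.

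Exons of *Bcat2*, *Bckdha*, *Hibch* and *Mccc1* overlap genes on the opposite strand that passed the filter. The most abundant of them was *B3gnt8*, opposite *Bckdha*, at 18.1 CPM in fl/fl beside 270.4 CPM for *Bckdha*, and the others were at or under 3.60 CPM. Several wider pathway genes have such partners at higher levels. *Dld* shares 303 exon bases with *Lamb1*, which at 414 CPM in fl/fl was above *Dld* (252 CPM), and *Btd* shares 2318 with *Ankrd28* (37.8 CPM beside 65.9 CPM for *Btd*). *Etfdh* overlaps *Ppid* (45.5 CPM) and *Echs1* overlaps *Paox* (41.0 CPM). The libraries were strand-specific, but whether the counting used the strand is not given in the sources used here, so reads from these pairs may have been shared.

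Because the 10 genes were lower together, the RefSeq promoters (GRCm38.p6, 250 bases before to 50 after each start) of the 9 genes with an entry, *Dbt* being the other, were searched on both strands for 4 motifs, which share no position in these promoters. The E-box CACGTG was in the promoter of 1 of 9 genes, *Mccc2*, and in 8.09% of all 27025 genes with a promoter. AAGGTCA, a nuclear receptor half-site (5.38% of all genes), CCGGAAG, an ETS motif (9.93%), and GCGCATGCG, the NRF1 core (1.95%), were in 0 of the 9 in this window. Among 23 wider pathway genes with an entry, AAGGTCA was in 0, CACGTG in 2 (*Klf15* and *Slc43a1*), CCGGAAG in 3 (*Auh*, *Hlcs* and *Slc3a2*) and GCGCATGCG in 2 (*Etfdh* and *Pccb*). The 100 bases before the start of *Mccc2* (chr13:100015640-100015739, minus strand) and the bases from 250 to 151 before that of *Klf15* (chr6:90462326-90462425, plus strand) are shown as stretches that hold E-boxes in the single matching gene of the 9 and in the transcription factor of the pathway, with CACGTG, which reads the same on both strands, in capitals. *Klf15* held 3 matches in all, the last of them across the start itself.
Mccc2: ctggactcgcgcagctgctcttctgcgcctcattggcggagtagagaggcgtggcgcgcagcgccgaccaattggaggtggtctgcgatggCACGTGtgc
Klf15: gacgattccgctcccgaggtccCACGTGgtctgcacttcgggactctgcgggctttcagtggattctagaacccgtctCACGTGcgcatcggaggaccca
A match describes these letters only, and binding at them was not measured.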

How the data were processed

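The authors deposited raw counts per gene for 33618 Ensembl genes and, from the same counts, log2 values made with the regularized log of DESeq2. Per the submitters' processing notes, FastQC 0.12.1, STAR 2.7.11a, genome build mm39 and DESeq2 were used. The counting tool and annotation are not given in the sources used here. Symbols and GRCm39 coordinates came from GENCODE vM39, which holds 33184 of the identifiers.

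Counts were analyzed in R 4.3.3 with edgeR 4.0.16 (filterByExpr, which left 16753 genes, TMM, robust quasi-likelihood test, Benjamini-Hochberg adjustment over all genes tested, threshold 0.05). SE is the log2 fold change over the root of the test statistic. Log2 CPM used a prior count of 2. Ratios were compared by exact permutation over mice with adjustment over 5 pairs, and their 95% intervals came from inverting that test. DESeq2 1.42.0 and limma 3.58.1 (on the deposited log2 values) were alternatives, with other scalings, no filter, blocks and omitted mice. The scripts were tested on simulated data. No library was a copy of another of its genotype (chi-square per degree of freedom at least 8.16 over 36 pairs). Pairs of mice of different genotype were not compared. Genes named are the 10 members, the wider pathway, comparison lists and cell markers, all chosen with earlier results of these data known. The values of 1 gene of the wider pathway are not reported here, and it is counted in the list.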

Additional observations from a re-analysis of the deposited data

Results flagged for a closer look

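Of 104 sets of libraries of 1 genotype examined, 19 held a library far from the others of its genotype. The rule was Dixon's ratio of the gap to the nearest library over the whole range, at the 95% critical value. Chance gives about 1 in 20 for a single set. The sets are values of the same libraries and are not independent, so 19 of 104 cannot be weighed against that rate. Replicate 6 of iADKO accounted for 13 of the 19 and replicate 5 of fl/fl for 5.

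Among the 10 BCAA genes, iADKO replicate 6 was far above the other iADKO libraries in *Bckdha* (228 CPM, next 160), *Ivd* (294 CPM, next 212), *Mccc1* (177 CPM, next 146), *Mccc2* (74.9 CPM, next 56.4) and *Hibadh* (219 CPM, next 163). Replicate 5 of fl/fl was far below the other fl/fl libraries in *Mccc2* (67.2 CPM, next 88.8). In the wider pathway, iADKO replicate 6 was likewise high in *Bckdk* (79.0 CPM), *Echs1* (210 CPM), *Aldh6a1* (529 CPM), *Acat1* (208 CPM), *Pccb* (145 CPM) and *Mmab* (28.9 CPM), and fl/fl replicate 5 was low in *Dld* (169 CPM), *Echs1* (190 CPM), *Pcca* (96.6 CPM) and *Etfb* (3.29 CPM). *Bcat1* was high in fl/fl replicate 7 (2.53 CPM, next 1.72). In iADKO replicate 6 the progenitor marker sum was low (2770 CPM, next 4060) and the endothelial marker sum high (952 CPM, next 867).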

How the results depend on the processing

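All 10 BCAA genes had negative log2 fold changes under each of 24 alternatives, and 220 of the 240 values kept their side of the threshold. The 20 others came from the block of 5 series, which left 0 of 10 called (54 genes differed in all, and 1 wider pathway gene was lower), and from the 4 mice of animals 722 to 727 alone, where edgeR called 0 genes (657 at an unadjusted p under 0.05), 0 of 10 members (1 at an unadjusted p under 0.05), 0 wider pathway genes, and the median of the 10 was -0.37. Both settings compare fewer mice within a series. With 4 series 1986 genes differed and 14 wider pathway genes were lower. With 3 series, chosen after seeing the data, these were 3419 and 20. Total-count scaling gave 8673 genes, a median of -0.55 and 17 wider pathway genes lower and 3 higher. DESeq2 gave 1 higher and the omission of fl/fl replicate 5 and iADKO replicate 6, chosen after seeing the data, gave 2. The causes were not tested.

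Whether replicate numbers pair the mice is not settled by the values. Of 6 same-numbered pairs, 3 had residual correlations over 0.1, and 2 of 6 iADKO mice correlated best with their own number. The mean residual correlation was 0.11 for same-numbered pairs and -0.025 for other pairs. With the replicate block (fl/fl replicate 7 left out), 4833 genes differed. All 10 BCAA genes and 21 wider pathway genes were lower, as were 14.7% of all genes tested. In that fit 1 wider pathway gene was higher, as were 2379 of all 16667 genes tested, and the median of the 10 was -0.74.

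Leaving out each mouse gave 3998 to 6604 genes, 10 members lower and 0 higher, a median from -0.86 to -0.70, and 20 to 22 wider pathway genes lower and 0 to 1 higher. In these fits 13.1 to 19.7% of all genes tested were called lower. The ratio differences ran from -0.055 to 0.014 for *Bckdhb*/*Bckdha*, 0.17 to 0.25 for *Dbt*/*Bckdha*, -0.0036 to 0.053 for *Mccc2*/*Mccc1*, 0.13 to 0.25 for *Ppm1k*/*Bckdk* and 0.06 to 0.11 for *Ivd*/*Acadsb*. The sign turned to 0.0021 and 0.014 for *Bckdhb*/*Bckdha* without fl/fl replicate 3 and without iADKO replicate 6, and to -0.0036 for *Mccc2*/*Mccc1* without fl/fl replicate 1. The *Lmna* log2 fold change was 0.13 to 0.40, past the threshold with total-count scaling (adjusted p = 0.00101) and without fl/fl replicate 1, iADKO replicate 6, or fl/fl replicate 5 with iADKO replicate 6 (adjusted p = 0.0411, 0.0208 and 0.0344).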
